A study of Homo sapiens with 18 samples.

Results

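The regions described here are the QKI peaks of human chromosome 2 that lie outside the titin gene. They were taken as every chromosome 2 entry, on both strands of the hg19 build, in the 9 per-library peak lists and the 3 merged lists of reproducible peaks, leaving out entries that overlapped the interval chr2:179390716-179672150 that holds titin. This gave 62464 of the 879442 listed clusters of the 9 libraries, 5728 of the 77088 clusters that passed the threshold below, and 685 of the 10301 reproducible peaks of the 3 merged lists. The titin interval itself held 410 passing peaks and 72 reproducible peaks, which were left out. Chromosome 2 was chosen by its higher share of passing peaks at day 8, so every value of day 8 against an earlier day is given below as a description. Where a fit across all windows also covers that contrast, its counts are printed and nothing is read from them.

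QKI (Quaking) belongs to the STAR family of RNA-binding proteins. It recognises short ACUAAY-like sequences, mostly in introns and in 3′ untranslated regions, and is known for setting splicing patterns in muscle, heart and glial cells. Titin, the giant spring protein of the muscle sarcomere, is a chromosome 2 gene of the heart, and the same chromosome carries other genes used by heart muscle, among them SLC8A1 (the sodium-calcium exchanger of the heart cell membrane), SMYD1 (a muscle methyltransferase), DES (the intermediate filament desmin) and SPEG (a kinase of striated muscle). The deposited peak lists carried no gene names, and no annotation of their build was used here, so windows and peaks are given by position and strand, and which of them lie in these genes was not determined.

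The assay was eCLIP, in which ultraviolet light links a protein to the RNA it touches, an antibody pulls the protein down (immunoprecipitation, IP) and the RNA that comes with it is sequenced beside a size-matched input. All libraries came from HUES6, a human embryonic stem cell line, and the same QKI antibody was used throughout. The groups were day 0 (pluripotent cells), day 4 (cardiac progenitors, after induction with CHIR and BMP4 and treatment with C59) and day 8 (beating cardiomyocytes, which had also received these agents), each with 3 IP libraries. The 9 input libraries entered only through the authors' enrichment values. No marker of the cell types could be checked, because the files held peaks and no expression values.

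A cluster was called a passing peak where the authors gave it an enrichment of 4-fold or more and a p of 0.001 or less. The number passing per library was 12695 to 15508 at day 0, 3030 to 7775 at day 4 and 3726 to 10966 at day 8, lowest in day 4 replicate 1. Shares of a library's passing peaks were therefore compared rather than numbers. Read depth was unknown, and no label states that libraries of the same day were grown as separate cultures. Their spread may therefore be technical. A higher share can come from more RNA of a region or from more QKI on that RNA, and these cannot be told apart in peak lists.

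Chromosome 2 outside titin held a larger share of the passing peaks at day 8 than at day 0 or day 4. Its share was 6.84, 6.63 and 6.69% in the 3 day 0 libraries, 5.54, 7.52 and 6.95% at day 4, and 8.94, 8.88 and 9.34% at day 8. Every day 8 library was above every library of the other days, while the day 4 libraries lay on both sides of the day 0 libraries. The means were 6.72% ± 0.108 at day 0, 6.67% ± 1.02 at day 4 and 9.05% ± 0.248 at day 8 (SD, n = 3 each). Day 8 exceeded day 0 by 2.33 percentage points, a ratio of 1.35, and exceeded day 4 by 2.38 points. Day 4 differed from day 0 by -0.0471 points, which was within the spread between libraries (two-sided exact permutation p = 1 over 20 splits, where 0.1 is the smallest value possible). In number, the day 0 libraries had 1061, 842 and 874 of these peaks, the day 4 libraries 168, 585 and 278, and the day 8 libraries 565, 331 and 1024, so day 8 libraries did not all carry more peaks than day 0 libraries.

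**Figure D1:**
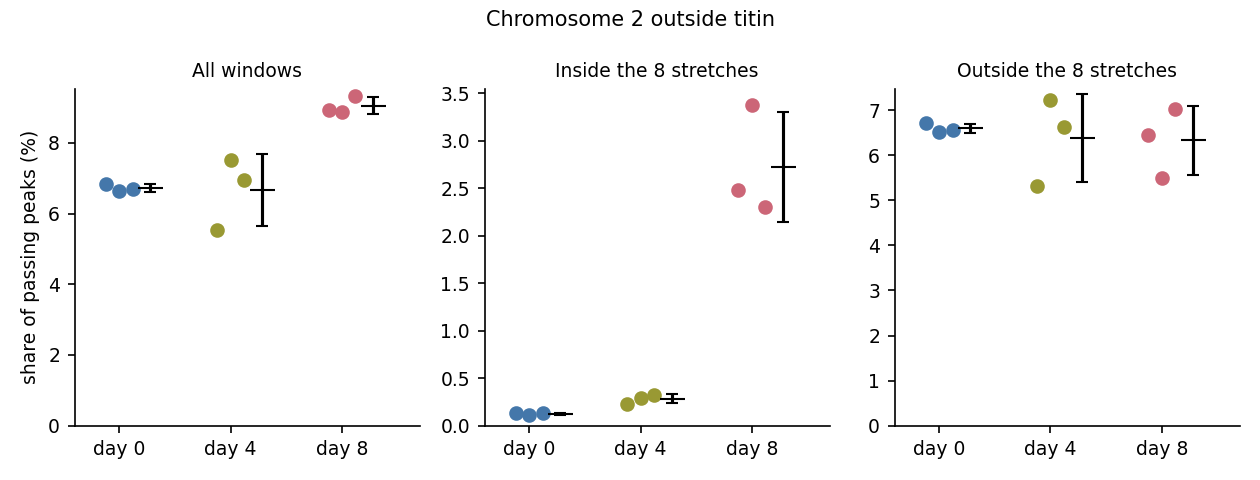
Share of each library's passing peaks on chromosome 2 outside titin, in percent, by day, for the whole chromosome and for its parts inside and outside the 8 stretches described in the text. Each point is 1 library, the bars give the mean and SD of 3, and each panel has its own vertical axis. The day 8 libraries sit between 8.88 and 9.34% for the whole chromosome, and the days overlap once the stretches are left out.

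The difference was smaller before the threshold was applied. Of all listed clusters of any fold, chromosome 2 outside titin held 7.07% ± 0.173 at day 0, 6.48% ± 0.463 at day 4 and 7.89% ± 0.426 at day 8. In the merged lists it held 490 of 7778 reproducible peaks at day 0 (6.30%, 95% Wilson interval 5.78 to 6.86), 53 of 947 at day 4 (5.60%, 4.30 to 7.25) and 142 of 1576 at day 8 (9.01%, 7.69 to 10.5). These intervals cover counting error only.

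No other chromosome had a larger difference in percentage points of mean share between day 8 and day 0. Among the 25 chromosomes of the lists, mitochondrial DNA included, chromosome 10 came next with 1.94 points, then chromosome 6 with 0.682 and chromosome 12 with 0.653. As a ratio of day 8 over day 0, chromosome 2 (1.35) was below chromosome 10 (1.44) and mitochondrial DNA (1.54). At the other end, chromosome 22 differed by -1.62 points and chromosome 3 by -1.24 points. The shares of one library sum to 100% with titin included, so a gain of one chromosome lowers the others.

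**Figure D2:**
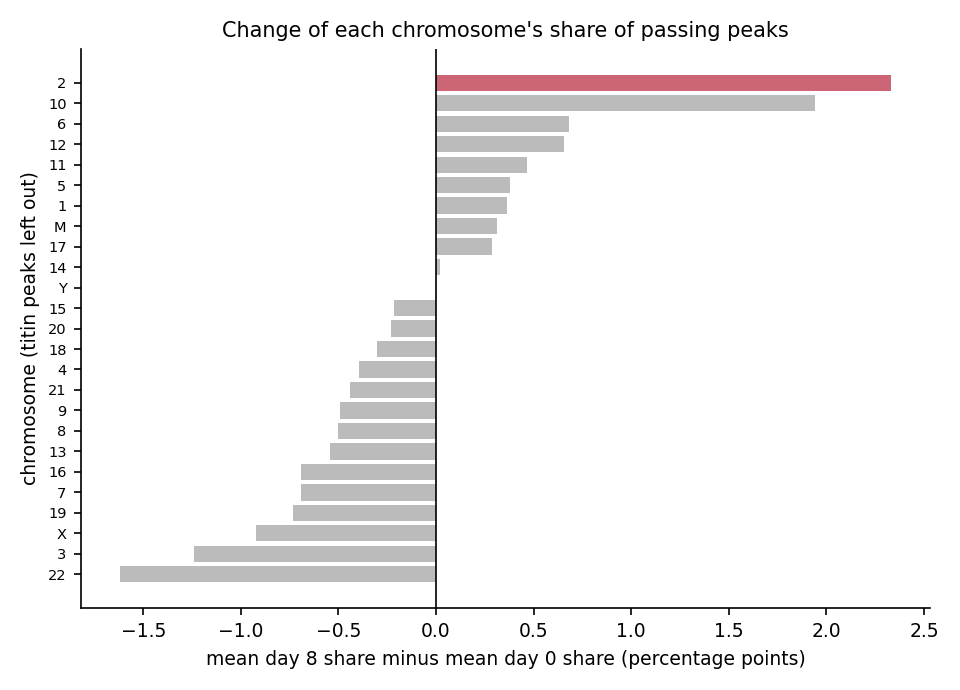
Mean day 8 share minus mean day 0 share of passing peaks for each chromosome, in percentage points, with titin peaks left out of chromosome 2. Bars run from 0, and chromosome 2 (2.33 points) and chromosome 10 (1.94 points) reach furthest to the right.

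The largest day 8 gains lay in a small part of the chromosome. Chromosome 2 was divided into 100-kb windows from its first base, and 637 windows held a passing peak in at least 1 library. The mean share was higher at day 8 than at day 0 in 274 windows, lower in 317 and equal in 46. The positive differences summed to 5.53 points and the negative ones to -3.20 points, which leaves the net of 2.33. The 10 windows with the largest gain summed to 1.78 points, or 76.1% of the net and 32.1% of all positive differences, and 15 windows were enough to reach the net. Together those 10 windows held 0.120% ± 0.0157 of all passing peaks in day 0 libraries, 0.259% ± 0.0241 at day 4 and 1.90% ± 0.483 at day 8. Without them chromosome 2 held 6.60% ± 0.0984, 6.41% ± 0.996 and 7.16% ± 0.689 at the 3 days. These windows were picked by their day 8 gain, so leaving them out was bound to lower the difference.

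**Figure D3:**
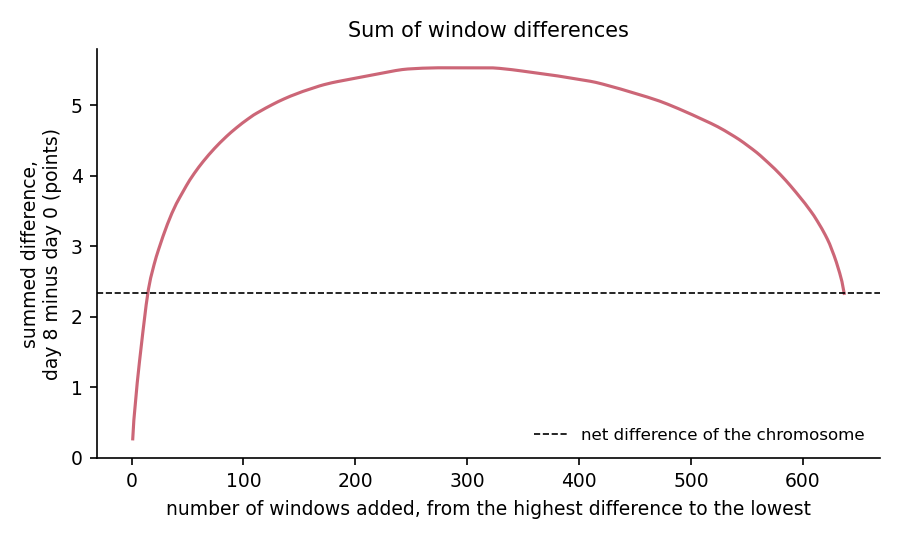
Running sum of the window differences, mean day 8 share minus mean day 0 share in percentage points, as windows are added from the largest gain to the largest loss. The curve passes the net of 2.33 points at 15 windows and climbs to 5.53 before the windows with a lower day 8 share bring it back.

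The 10 windows lay in 8 stretches of neighbouring windows. A stretch was built outward from a window among the 10 and took in adjacent windows in which every day 8 library had a passing peak and a share above that of every day 0 library, a definition made after the data were seen. The 8 stretches covered 21 windows and gained 2.60 points, which is 111% of the net. Inside them were 20, 14 and 17 passing peaks in the day 0 libraries, 7, 23 and 13 at day 4 and 157, 126 and 253 at day 8. Their share averaged 0.123% ± 0.0111 in day 0 libraries, 0.284% ± 0.0481 in day 4 libraries and 2.72% ± 0.576 in day 8 libraries. The rest of chromosome 2 held 6.60% ± 0.101, 6.39% ± 0.979 and 6.33% ± 0.772, so that outside the stretches the day 8 mean was 0.268 points below the day 0 mean (-0.268). Leaving out stretches defined by their gain was likewise bound to lower the difference. The ratios of day 8 over day 0 below divide summed passing peaks by the summed totals of the 3 libraries, with exact 95% intervals for counting error only. A ratio above 1 follows from the definition of the stretches. The intervals treat neighbouring peaks as separate counts and are not read as a test.

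**Figure D4:**
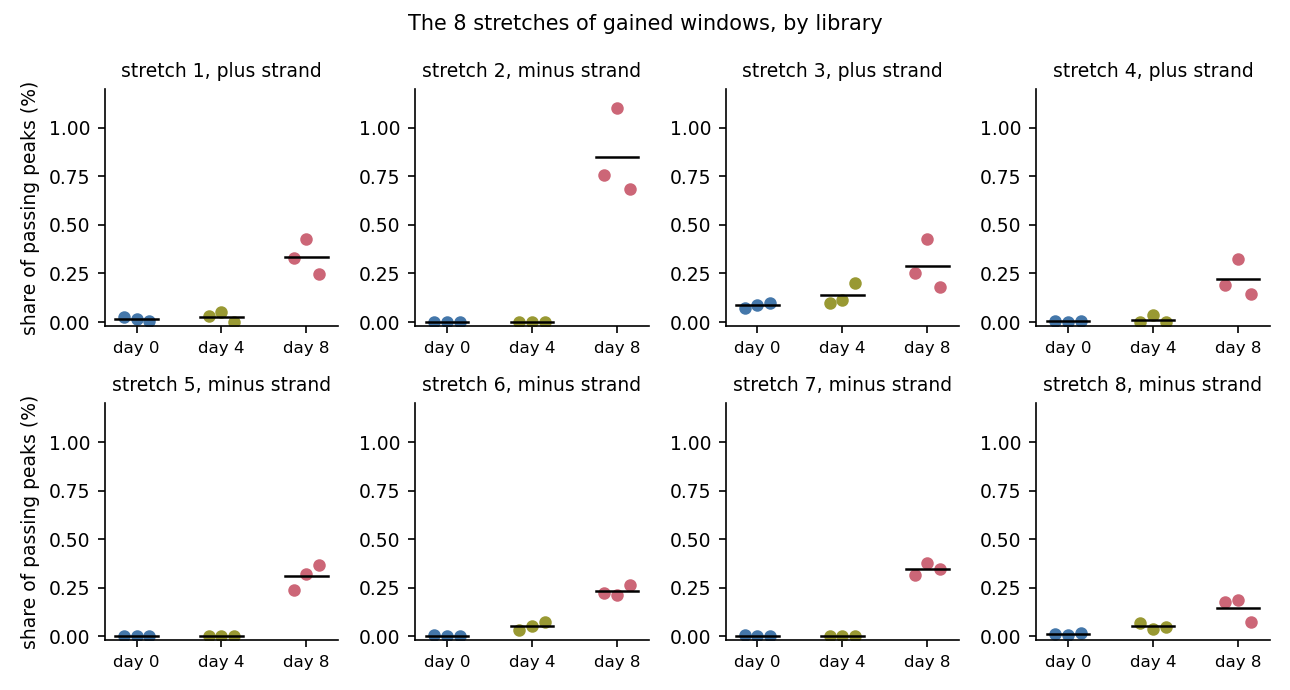
Share of passing peaks, in percent, in each of the 8 stretches of chromosome 2 windows, by day, with 1 point per library and all panels on the same axis. The stretch numbered 2 reaches 1.10% in a day 8 library, and the stretches numbered 2 and 5 are at 0 in all 6 libraries of the earlier days.

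The largest stretch was chr2:40300001-40800000 on the minus strand, the second along the chromosome. It held 48, 41 and 75 passing peaks at day 8 and none in any day 4 or day 0 library. Its day 8 share was 0.848% ± 0.222 of all passing peaks, and the ratio over day 0 was at least 107-fold against a floor of 3 peaks over the group, with an exact lower 95% limit of 86.3 for the ratio itself. Clusters of any fold were nearly absent before day 8 as well, with 0, 0 and 1 at day 0, 1, 3 and 1 at day 4, and 323, 424 and 400 at day 8. All 164 day 8 passing peaks lay on the minus strand, over 395038 nt from base 40339544 to base 40734581. Overlapping peaks merged into 85 footprints, of which 25 were present in all 3 libraries and 46 in only 1. Its peaks were weaker than those of the other stretches, with a median log2 fold of 3.31 against medians of 3.50 to 4.67. The windows chr2:40400001-40500000 and chr2:40500001-40600000 ranked first and second by gain on the chromosome, with 0.269 and 0.266 points. In the authors' deposited list the strongest reproducible peaks of these windows were chr2:40435226-40435312, with a log2 fold of 5.38, and chr2:40569623-40569694, with 5.05.

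The stretch chr2:163500001-163700000, also on the minus strand, was likewise empty of passing peaks before day 8. It held 15, 12 and 40 passing peaks in the day 8 libraries, a share of 0.308% ± 0.0649, and 0 in each of the other 6 libraries. Against the floor of 3 peaks over the group, the day 8 share was at least 43.9-fold that of day 0, and the exact lower 95% limit of the ratio was 34.7. Listed clusters numbered 1 in each day 0 library, 0 in each day 4 library, and 70, 58 and 96 at day 8. The peaks formed 40 footprints, 9 of them in all 3 libraries. Its strongest reproducible peak in the authors' deposited list was chr2:163624698-163624770, with a log2 fold of 6.01.

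Another minus-strand stretch, chr2:213100001-213400000, held 1, 0 and 0 passing peaks at day 0, none at day 4, and 20, 14 and 38 at day 8. The day 8 share of 0.346% ± 0.0296 varied least between libraries relative to its mean among the 8 stretches. The ratio to day 0 was 141, with a wide interval of 24.6 to 5663 because a single day 0 peak stood against 72. Below the threshold, day 0 libraries did list 9, 8 and 10 clusters here, whereas day 4 libraries listed none. The peaks ran over 270987 nt in 39 footprints. The peak chr2:213264785-213264849 was the strongest reproducible one, at a log2 fold of 5.22 in the authors' deposited list.

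Next to titin, the minus-strand stretch chr2:179600001-179900000 had its lowest shares at day 0 and its highest at day 8, with day 4 between. Its first window ends beyond the titin interval, and only peaks outside that interval were counted. Passing peaks numbered 1, 0 and 0 at day 0, 1, 4 and 3 at day 4, and 14, 8 and 29 at day 8. The shares were 0.00215% ± 0.00372, 0.0532% ± 0.0211 and 0.234% ± 0.0270, and no 2 days overlapped. The day 8 ratio over day 0 was 100.2, with an interval of 17.2 to 4033. Among listed clusters the order was the same, with 2, 16 and 7 at day 0, 17, 38 and 40 at day 4, and 50, 72 and 85 at day 8, although day 0 replicate 2 was close to day 4 replicate 1. The strongest reproducible peak of the authors' deposited list, chr2:179701325-179701372 with a log2 fold of 5.07, passed in 3 day 8 and 2 day 4 libraries and in no day 0 library.

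The position of these peaks relative to titin depends on the interval's edge. The kept passing peak nearest above the interval in day 8 replicate 3 was chr2:179690732-179690788, 18582 nt beyond the edge with a log2 fold of 3.27. The nearest one left out of the same library was chr2:179669695-179669765, 2385 nt inside it with a log2 fold of 5.11. In the gene order of RefSeq's GRCh38.p14, the protein-coding neighbours of titin are PLEKHA3 on the lower side and CCDC141 on the upper side. Which gene the kept peaks lie in was not determined.

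The last minus-strand stretch was the single window chr2:220400001-220500000, and it was narrow. Its passing peaks lay within 11440 nt, from base 220418559 to base 220429998, in only 4 footprints. The median footprint width was 117 nt, the highest among the stretches. There were 2, 1 and 2 passing peaks at day 0, 2, 3 and 2 at day 4, and 11, 7 and 8 at day 8. The order of days was the same as beside titin, with no overlap between days. As mean shares in day 0, day 4 and day 8 libraries these were 0.0120% ± 0.00379, 0.0515% ± 0.0138 and 0.145% ± 0.0627. The day 8 ratio over day 0 was 10.2 (3.86 to 34.1). Unlike in the stretches above, clusters of any fold were about as numerous at every day, with 25, 20 and 19 at day 8 beside 29, 22 and 22 at day 0. Day 8 libraries listed fewer clusters in total (52462 to 62897) than day 0 libraries (102085 to 187962), so similar numbers are not similar shares. More of the listed clusters passed at day 8 than at day 0. The strongest reproducible peak, chr2:220419064-220419116, had a log2 fold of 5.09 in the authors' deposited list.

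Of the 3 plus-strand stretches, the first along the chromosome was chr2:33300001-33600000. It held 4, 2 and 1 passing peaks at day 0, 1, 4 and 0 at day 4, and 21, 16 and 27 at day 8. Day 8 libraries had 0.336% ± 0.0917 of their passing peaks here and day 0 libraries 0.0164% ± 0.00909, a summed ratio of 18.0 (8.23 to 46.5). The 64 peaks spanned 248189 nt in 26 footprints with wide gaps, at a median of 5570 nt. The merged lists of days 0, 4 and 8 had 1, 0 and 12 reproducible peaks here. The authors' deposited list gave log2 folds of 5.63 to chr2:33409206-33409326 and 5.32 to chr2:33569417-33569514, the strongest of their windows.

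The stretch chr2:54700001-54900000 was bound at every day and gained least in proportion. The libraries had 11, 11 and 13 passing peaks here at day 0, 3, 9 and 8 at day 4, and 16, 16 and 20 at day 8. Shares were 0.0857% ± 0.0143 at day 0, 0.138% ± 0.0542 at day 4 and 0.288% ± 0.127 at day 8, and the day 8 ratio over day 0 was 2.92 (1.87 to 4.62). Day 8 replicate 3, at 0.182%, lay below day 4 replicate 3, at 0.200%. Listed clusters were similar in number, with 48, 57 and 47 at day 8 and 37, 48 and 39 at day 0. Because day 8 libraries listed fewer clusters in total, their shares were not similar. The footprints were closely packed, with a median gap of 193 nt. The strongest reproducible peak of the window chr2:54800001-54900000 came from the day 0 list, chr2:54889714-54889814, with a log2 fold of 7.22 in the authors' deposited list, and it passed in all 9 libraries.

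The last plus-strand stretch, chr2:88300001-88500000, held 1, 0 and 1 passing peaks at day 0, 0, 3 and 0 at day 4, and 12, 12 and 16 at day 8. Its day 8 share was 0.219% ± 0.0917, and the ratio over day 0 was 39.3 (10.2 to 336). Of the 40 day 8 peaks 36 were on the plus strand, so this was the only stretch with day 8 peaks on both. The 2 day 0 peaks lay on the minus strand, so the share and the ratio mix strands. On the plus strand no day 0 library had a passing peak here. The plus-strand peaks fell within 20493 nt, in 13 footprints of which 6 were in all 3 libraries. Reproducible peaks were 8 at day 8 and 0 at both earlier days. In the authors' deposited list the strongest, chr2:88398247-88398329, had a log2 fold of 5.25.

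Of the 142 reproducible day 8 peaks of chromosome 2 outside titin, 78 (54.9%) lay in the 8 stretches. Only 12 of those 78 (15.4%) overlapped a reproducible day 0 peak (1 nt or more, strands matched), against 51 of the 64 (79.7%) outside the stretches. The stretches were defined by day 8 shares above every day 0 share. That definition favours a low overlap inside them, so nothing is read from this split. Over the whole chromosome 63 of 142 reproducible day 8 peaks overlapped the day 0 list (44.4%, 36.5 to 52.6), while on other chromosomes the share was 68.7% (66.1 to 71.1). For overlap with the day 4 list the shares were 21.8% on chromosome 2 and 43.7% elsewhere. Chromosome 2 was chosen by its day 8 share, so nothing is read from these day 8 differences. The intervals cover counting error only. Of the reproducible day 4 peaks, 50 of 53 (94.3%) on chromosome 2 and 85.3% elsewhere overlapped the day 0 list.

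Passing peaks of all libraries merged into 2289 regions outside titin. Of these, 1201 (52.5%) passed in 1 library and 32 passed in all 9. Regions passing in 3 of 3 day 8 libraries and no day 0 library numbered 64 (2.80%), of which 53 (82.8%) lay in the stretches, as their definition favours. Over the 29222 regions of all chromosomes the background was 1.53%. The opposite pattern, present in every day 0 library and absent from day 8, was found in 179 regions (7.82%, background 9.48%). Against day 4, 68 regions passed in the day 8 libraries alone (2.97%, background 1.73%) and 3 in the day 4 libraries alone (0.131%, background 0.195%). For day 4 against day 0 the numbers were 2 (0.0874%, background 0.246%) and 169 (7.38%, background 9.14%). The day 0 libraries also had the most passing peaks.

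Some windows had passing peaks in every day 8 library and in no earlier library. Of the 637 windows, 17 (2.67%) had a passing peak in all 3 day 8 libraries and in none at day 0 or day 4, where the background over all chromosomes was 1.12% of 8201 windows. The choice of chromosome 2 used this contrast, so nothing is read from the difference. All 5 windows of chr2:40300001-40800000 were among the 17, and 3 of the 17 had no cluster of any fold at the earlier days (starting at 40300001, 40700001 and 163300001). The reverse pattern, passing in all day 0 libraries and none later, was seen in 39 windows (6.12%), beside a background of 7.18%.

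Single losses were smaller than the leading gains. The 5 windows with the largest losses summed to -0.340 points, and each held a dense cluster of day 0 peaks on 1 strand. The largest was chr2:168200001-168300000, with 1, 1 and 2 passing peaks at day 8 against 15, 16 and 12 at day 0, a difference of -0.0846 points. Day 4 libraries held 1, 8 and 1 there. Its strongest reproducible peak, chr2:168207426-168207476, had a log2 fold of 5.96 in the authors' deposited day 0 list. Next came chr2:159400001-159500000, with 1, 1 and 5 passing peaks at day 8 against 16, 18 and 12 at day 0 (-0.0828 points).

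In that window the strongest reproducible peak nevertheless persisted. The peak chr2:159495556-159495592, with a log2 fold of 6.55 in the authors' deposited list, passed in 3 day 8, 2 day 4 and 3 day 0 libraries. By contrast chr2:115900001-116000000 had no passing peak at day 8 and 26 at day 0 (-0.0624 points), and its strongest peak, chr2:115955650-115955754 with a log2 fold of 5.84 in the authors' deposited list, passed in no later library. The other losses were chr2:44600001-44700000 on the plus strand, with 3 passing peaks at day 8 and 28 at day 0 (-0.0571 points), and chr2:50800001-50900000 on the minus strand, with 0 at day 8 and 22 at day 0 (-0.0534 points).

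Other windows carried many peaks at every day. By mean share over the 9 libraries, chr2:54800001-54900000 was the highest at 0.153% and belongs to a stretch above. It was followed by chr2:71500001-71600000 at 0.139%, with 20, 18 and 16 passing peaks at day 0, 2, 12 and 8 at day 4, and 11, 6 and 11 at day 8. The mean share of that window was 0.131% ± 0.00985, 0.140% ± 0.0681 and 0.145% ± 0.0394 at the 3 days, which overlap. The windows chr2:238600001-238700000 and chr2:242200001-242300000 both averaged 0.130%. At day 8 the first had 0.219% ± 0.0445, against 0.0893% ± 0.0180 at day 0, and the second had 0.156% ± 0.0506, against 0.113% ± 0.0149. The fifth, chr2:133000001-133100000 on the minus strand, averaged 0.114% and was highest at day 4, as described next.

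Some single sites passed the threshold at every day. Of the 32 regions passing in all 9 libraries, 16 were also in the reproducible list of each day. The one with the highest lowest value over the 3 days was chr2:32790541-32790679 on the plus strand, with log2 folds of 6.31, 6.60 and 6.46 at days 0, 4 and 8 in the authors' deposited lists. The region chr2:242559034-242559306 on the minus strand had 8.28, 6.11 and 6.01, and chr2:120867816-120867969 on the plus strand had 7.10, 5.79 and 6.11. The first differed little between days, while the other two were highest at day 0.

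Day 4 against day 0 was a contrast that the choice of chromosome 2 did not use, and it was tested window by window. The limma test was fitted over all 2347 windows of the genome with at least 10 passing peaks, on log2 shares with a pseudocount, with Benjamini-Hochberg adjustment at 0.05. Of the 173 chromosome 2 windows tested, 28 were higher at day 4 (background 12.8% of windows) and 5 lower (background 7.67%). A fixed pseudocount of 0.5 weighs more in a library with few peaks, and under it a window with 0 peaks in every library took a day 4 value 1.59 log2 units above its day 0 value. Of the 28 higher windows 10 had no passing peak at either day. With a pseudocount in proportion to each library's total, added after seeing the data, 6 windows were higher (background 4.56%) and 14 lower (background 15.7%). The median of all windows was 0.247 under the fixed pseudocount and -0.358 under the proportional one, and windows called under both are described here.

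Under both pseudocounts 6 windows were called higher at day 4, a share of chromosome 2 windows of 3.47% beside a background of 4.56%, and 5 were called lower (2.89%, background 7.33%). A window entered the fit with 10 passing peaks over all libraries, and 3 of the 6 higher windows reached that minimum only through their day 4 peaks and 4 of the 5 lower windows only through their day 0 peaks. A window that enters through the day where it is high is bound to differ, so those 7 are given by their peaks alone, and the counts are not read as a result.

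Of the higher windows that met the minimum without their day 4 peaks, chr2:133000001-133100000 had 8, 7 and 10 passing peaks at day 4 and 6, 5 and 6 at day 0. Its mean shares were 0.201% ± 0.0967 at day 4 and 0.0413% ± 0.00398 at day 0, a log2 difference of 2.10 ± 0.497 (SE, limma adjusted p = 0.00561). The window chr2:179700001-179800000 beside titin had 1, 4 and 3 passing peaks at day 4 and 1, 0 and 0 at day 0 (log2 difference 3.58 ± 0.488, limma adjusted p = 1.85e-05). It reached the minimum of 10 only with its 30 day 8 peaks, beside 8 at day 4 and 1 at day 0. Since chromosome 2 was chosen by its day 8 share, nothing is read from this call. Window chr2:220400001-220500000 had 2, 3 and 2 at day 4 and 2, 1 and 2 at day 0 (2.00 ± 0.469, limma adjusted p = 0.00543). Because the last 2 windows were picked out for gains over the same day 0 libraries, their day 4 calls are not independent of that choice. The values above are those of the fixed pseudocount. With the proportional one the log2 differences of the 3 windows, in order, were 2.00, 2.92 and 1.68 (limma adjusted p = 0.0280, 0.000735 and 0.0168). These 3 calls held, with the fixed pseudocount, when any 1 library was left out.

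The higher windows that entered through day 4 held few peaks. There were 1, 4 and 3 passing peaks at day 4 in chr2:139400001-139500000, none at day 0, and 0, 0 and 2 at day 8. The window chr2:77200001-77300000 had 1, 6 and 4 at day 4 and 1, 1 and 1 at day 0, and chr2:39200001-39300000 had 1, 3 and 1 at day 4 and 1, 1 and 0 at day 0. A window named among the most significant under the fixed pseudocount alone, chr2:8800001-8900000, had 0, 1 and 1 passing peaks at day 4 and none at day 0, and its limma adjusted p was 0.00193 with the fixed and 0.168 with the proportional pseudocount.

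The lower window that met the minimum without its day 0 peaks was chr2:159400001-159500000, also among the day 8 losses over the same day 0 libraries. Day 4 libraries had 0, 3 and 1 passing peaks there and day 0 libraries 16, 18 and 12 (log2 difference -1.91 ± 0.478, limma adjusted p = 0.00775). Those values are of the fixed pseudocount, and the proportional one gave a log2 difference of -2.54 (limma adjusted p = 0.0320). With the fixed pseudocount the call was lost without day 0 replicate 2 (limma adjusted p = 0.0530), and it was also lost with a pseudocount of 2 (0.0526). The other 4 were empty of passing peaks at day 4. At day 0, chr2:122100001-122200000 held 9, 7 and 8, chr2:189100001-189200000 held 7, 7 and 5, chr2:46700001-46800000 held 8, 5 and 4, and chr2:1100001-1200000 held 5, 5 and 3. All but the first were empty of passing peaks at day 8 too.

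For day 8 against day 0, the same fit gave 36 of the 173 windows higher (background 14.4%) and 22 lower (background 18.7%), or 24 higher (background 9.03%) and 21 lower (background 19.4%) with the proportional pseudocount. All day 8 shares lay above all day 0 shares in 44 of the windows (background 19.1%) and below them in 39 (background 28.5%). The choice of the chromosome used this contrast, and nothing is read from these counts.

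Strand separated the days as well. The minus strand carried 40.8, 41.1 and 42.8% of the chromosome 2 passing peaks at day 0, 53.0, 49.9 and 53.2% at day 4, and 54.5, 57.7 and 59.8% at day 8. No day 0 library reached the lowest library of a later day, and day 8 lay above day 4 throughout. Day 4 exceeded day 0 by 10.5 points (two-sided exact permutation p = 0.1, the smallest possible with 3 against 3). Outside the 8 stretches the means were 42.0% ± 1.13 at day 0, 52.7% ± 1.74 at day 4 and 52.0% ± 2.91 at day 8, so day 8 and day 4 overlapped there. As shares of all passing peaks, minus-strand peaks held 2.79% ± 0.0681, 3.46% ± 0.457 and 5.19% ± 0.359 at the 3 days, and plus-strand peaks 3.93% ± 0.113, 3.21% ± 0.582 and 3.86% ± 0.179. The plus-strand share at day 8 thus differed from day 0 by less than the spread, and the net day 8 gain lay on the minus strand. The 3 plus-strand stretches nevertheless gained 0.320, 0.203 and 0.215 points, with peaks of both strands counted.

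**Figure D5:**
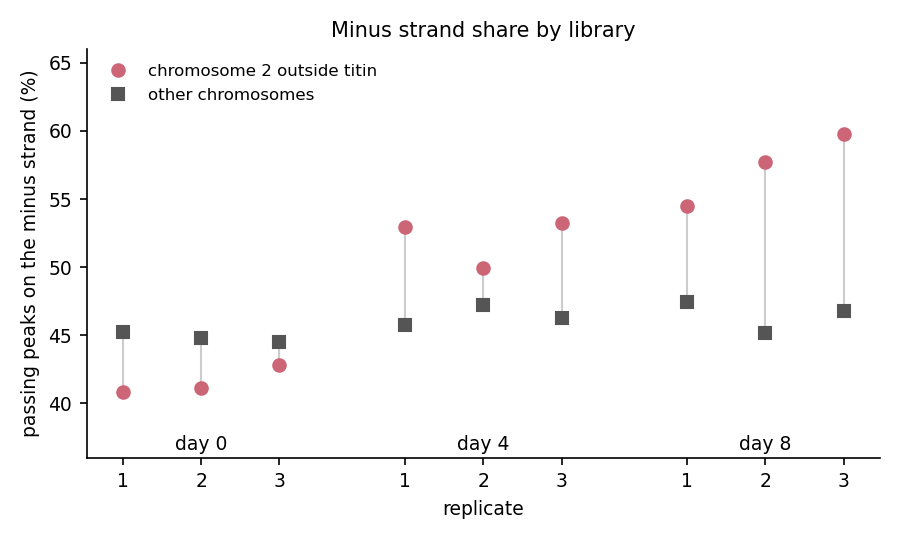
Percent of passing peaks on the minus strand in each library, for chromosome 2 outside titin and for all other nuclear chromosomes, by day and replicate number. The vertical axis starts at 36%. Chromosome 2 lies below the other chromosomes in the 3 day 0 libraries and above them in the 6 later ones.

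On the other chromosomes, without mitochondrial peaks, the minus strand held 44.8% (day 0), 46.4% (day 4) and 46.5% (day 8). Over the 9 libraries chromosome 2 averaged 50.3% and the others 45.9%. The difference within a library was 4.40 ± 6.57 points (SD, n = 9), positive in 6 and negative in 3 (two-sided exact sign-flip permutation p = 0.0859, adjusted over 3 properties 0.0938), which did not pass. The 3 negative differences were those of day 0, so this test pools days that differed in sign.

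Peaks on chromosome 2 were slightly wider than those elsewhere. Their mean width was 71.9 ± 3.32 nt, against 69.3 ± 3.03 nt on the other chromosomes (SD over 9 libraries), a difference of 2.56 ± 1.31 nt that was positive in 9 of 9 libraries (two-sided exact sign-flip permutation p = 0.00391, the smallest possible over 512 patterns, adjusted 0.0117). It was 3.61 nt at day 0, 2.24 at day 4 and 1.82 at day 8 on average. The libraries share regions, so their agreement does not show that chromosome 2 is unusual. No other single chromosome was compared with the rest. The call ended when only peaks within reproducible peaks were used, at 1.31 nt (exact permutation p = 0.223). Peak strength did not differ beyond the spread. The median log2 fold was 4.20 ± 0.158 on chromosome 2 and 4.07 ± 0.263 elsewhere, a difference of 0.127 ± 0.220 (exact sign-flip permutation p = 0.0938, higher in 5 libraries, lower in 1 and tied in 3), with the largest single difference, 0.652, in day 4 replicate 1.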

How the data were processed

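QKI eCLIP peak lists of HUES6 cells were analysed for 9 IP libraries, 3 each at day 0, day 4 and day 8. Reads were processed with cutadapt, STAR and SAMtools on hg19, per the submitters' processing notes, without versions. The peak caller was not given in the sources used here. For each cluster the authors deposited a log2 fold of IP over input and, for this enrichment, a −log10 p-value of at most 400. Merged lists held peaks that passed a 3-way reproducibility comparison, per the file headers. The deposited score column was not used, and no reads were used here, so depth is unknown.

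Starts were converted to 1-based positions. A peak counted in the window of its midpoint. Window shares were log2((peaks + 0.5) / (library total + 1) × 10000), fitted with limma 3.58.1 (R 4.3.3, lmFit, and eBayes with its trend option) on the 9 libraries together. The fit was also run on simulated data with an assumed spread between libraries. There it missed most changes, large ones included, and recovered far more of the raised than of the lowered windows. Other steps used Python 3.11.15, pandas 2.3.3, numpy 2.4.6 and scipy 1.17.1. Contrasts of single values used exact permutation tests. The members, gene lists and tests were chosen with earlier results of these data known. Named windows were the 10 largest gains and 5 largest losses of mean share, day 8 minus day 0, the 5 highest means over 9 libraries, and up to 5 windows per direction called by limma for day 4 against day 0. Named peaks were the strongest reproducible peak of each gain window and of the first 3 loss windows, and the 3 strongest regions shared by all days. The other windows called under both pseudocounts were added after their values were seen. Alternatives were other thresholds, windows, pseudocounts, peak numbers and leaving out each library. Libraries with the same replicate number did not deviate together, with correlations of -0.135 to 0.299, so the main fit has no block. A motif test in the plan and the gene lists were not run, because no genome or annotation of hg19 was used here.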

Additional observations from a re-analysis of the deposited data

Results flagged for a closer look

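The strand balance of chromosome 2 outside titin, set against that of the other chromosomes within the same library, changed sign between days. Its minus-strand share was above that of the other chromosomes by 7.25, 2.67 and 6.95 points in the day 4 libraries and by 10.9 ± 3.29 points at day 8 (SD, n = 3), against -4.43, -3.68 and -1.71 points at day 0. The mean difference was thus 8.90 points higher at day 4 than at day 0, and 14.1 points higher at day 8 than at day 0. Every library of the later day moved one way and every day 0 library the other, and the difference between days was not tested. At day 8, 109, 83 and 192 of the minus-strand peaks lay in the 8 stretches, against 5, 1 and 3 at day 0.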

How the results depend on the processing

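The day 8 minus day 0 share of 2.33 points was 0.816 over clusters of any fold, 3.40 with equal numbers of the strongest peaks, 0.557 without the 10 gain windows and -0.268 without the 8 stretches, the last 2 chosen after seeing the data. Leaving out windows picked for their gain is bound to lower the difference. With 1 library left out, the 2.33 points ranged from 2.19 to 2.42. Day 8 minus day 4 (2.38 points) ranged from 1.82 to 2.81 in the same way and kept its direction in every alternative run. Day 4 minus day 0 (-0.0471) had no settled sign. It was 0.131 at 8-fold, 1.01 with equal numbers of peaks, and -0.472 to 0.517 with 1 library left out, positive without day 4 replicate 1 (0.517) or day 0 replicate 1 (0.0134).

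The 33 windows changed at day 4 became 82 with a pseudocount of 2, 55 with at least 5 peaks and 15 with at least 20, 9 with equal numbers of peaks, 21 as shares of the same chromosome, 20 with the proportional pseudocount, and 13 to 41 with 1 library left out (17 or fewer without day 0 replicate 1, 2 or 3 or without day 4 replicate 1 or 3). Higher against lower windows were 28 and 5 as reported, 82 and 0 with a pseudocount of 2, 4 and 5 with equal numbers of peaks, and 6 and 14 with the proportional one. The 36 windows higher at day 8 became 60 with at least 5 peaks, 17 with at least 20 and 15 with equal numbers, and 30 to 44 with 1 library left out. These day 8 counts are a description, since the chromosome was chosen on that contrast. Their split against lower windows was 36 and 22 as reported, 52 and 4 with a pseudocount of 2, 60 and 22 with at least 5 peaks, and 27 and 31 as shares of the same chromosome. With replicate number as a replicate block, 26 windows changed at day 4 and 38 were higher at day 8, and the 4 windows whose day 4 test is described kept their calls. The numbers were not shown to pair the libraries.

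The width difference (2.56 nt) was 2.28 to 2.78 with 1 library left out and 1.31 within reproducible peaks. The fold difference (0.127) was -0.0185 at 8-fold, -0.119 within reproducible peaks and 0.0610 to 0.153 with 1 library left out. The minus-strand difference (4.40 points) was 8.34 within reproducible peaks (exact permutation p = 0.0313) and 3.33 to 5.51 with 1 library left out. It passed the threshold without day 0 replicate 1 or 2 (exact permutation p = 0.0469). All day 0 differences were negative and all later ones positive, so leaving out a day 0 library removes a negative value. These p-values were not adjusted, and nothing is read from them. The causes were not tested. The motif alternatives were not run, having no genome of the build. Without reads, a window with no passing peak gives no bound on binding.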

Other observations

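Of the 17 chromosome 2 windows with passing peaks in all 3 day 8 libraries and in no earlier library, 4 lay outside the 8 stretches, and the peaks of all 4 were on the minus strand. They held few peaks each. The window chr2:163300001-163400000, a window apart from a minus-strand stretch, had 3, 1 and 3 passing peaks at day 8 and no cluster of any fold before. The windows chr2:212700001-212800000 and chr2:212900001-213000000, below another minus-strand stretch, had 2, 1 and 3 and 3, 1 and 7 at day 8. Listed clusters in the second of these numbered 0, 0 and 1 at day 0, 0 in each day 4 library, and 13, 10 and 28 at day 8. The fourth, chr2:105900001-106000000, had 3, 1 and 1 passing peaks at day 8, and it listed 2, 2 and 5 clusters at day 0, 1, 1 and 3 at day 4, and 9, 9 and 10 at day 8. These windows were chosen after their values were seen and were not tested.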
